A study of Rattus norvegicus with 6 samples.

Results

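The genes described here encode the proteins of the cytosolic ribosome. They were taken from the deposited mRNA table by symbol: every row whose RefSeq transcript belongs to a rat gene named Rpl or Rps followed by a number, or Rplp0, Rplp1, Rplp2 or Rpsa, with the S6 kinases (Rps6k) and the mitochondrial Mrpl and Mrps genes left out. The rule took 76 of the 20734 rows, which stand for 74 genes, 46 of the large subunit and 28 of the small subunit. All 74 were tested, among 19942 mRNA genes in all, and 73 of them were well above background on all 6 arrays. Of 77 usual symbols of the family, 66 had a row that could be named, and the others, Rpl13, Rpl31, Rpl37a, Rplp2, Rps3a, Rps9, Rps15a and Rps24 among them, were not analysed here. The other 8 genes are close copies or variants: Rpl3l, Rpl22l1, Rpl36al1 (older name Rpl36al), Rpl37l1 (older name Rpl37), Rpl39l1 (older name Rpl39l), Rps4y2, Rps12l4 and Rps27l. Many ribosomal protein genes have processed pseudogenes, and signal from a near-identical copy cannot be told apart from signal of the gene itself, so values of single members are uncertain to that extent.

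The study set normal heart muscle cells against cells made hypertrophic. The cells were primary ventricular myocytes of Sprague-Dawley rats aged 1 to 3 days, from which fibroblasts had been removed by pre-plating, and which were kept without serum before treatment. The 3 control cultures received no drug, and the 3 treated cultures received 10 µM isoproterenol for 24 h, a drug that activates beta-adrenergic receptors. RNA was read on 1-colour arrays. The labels also speak of passages and of transfection, for which no agent is named. The labels call the replicates biological without naming a litter or a culture, so the p-values measure only the spread between these samples.

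The cytosolic ribosome is built from ribosomal RNA and about as many different proteins as there are genes in this family, made in equal numbers, and growth of a heart muscle cell depends on making more of them. Transcripts of ribosomal proteins are among the most abundant of any cell. Most of them begin with a C followed by a run of pyrimidines, the 5′ terminal oligopyrimidine tract (TOP), through which the kinase complex mTORC1 and the RNA-binding protein Larp1 control their translation, so that protein output can change while the mRNA level does not. Arrays read the mRNA level only.

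The start regions below are shown because the tract is known from transcripts of this family. Each line gives 40 bases before the annotated transcription start and the first 20 transcribed bases, 5′ to 3′ on the strand of the gene, from the RefSeq promoter table for GRCr8, with every run of at least 6 C or T letters in capitals. Rps27a (annotated at a pair of starts), Rpl13a, Rps27l and Rpl22l1 are the members whose rise passed the test under every scaling tried, Rpl22 is the partner of Rpl22l1, and Rplp0, Rplp1 and Rps18 show the typical form.
Rps27a, start 1, chr14:107488866-107488925, minus strand: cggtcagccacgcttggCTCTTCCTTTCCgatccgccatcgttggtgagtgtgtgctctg
Rps27a, start 2, chr14:107488922-107488981, minus strand: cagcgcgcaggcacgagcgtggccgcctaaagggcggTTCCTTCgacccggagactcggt
Rpl13a, chr1:104748894-104748953, minus strand: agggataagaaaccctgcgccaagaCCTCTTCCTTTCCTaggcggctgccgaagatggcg
Rps27l, chr8:76443618-76443677, plus strand: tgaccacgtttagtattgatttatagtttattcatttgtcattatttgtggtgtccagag
Rpl22l1, chr2:113683156-113683215, plus strand: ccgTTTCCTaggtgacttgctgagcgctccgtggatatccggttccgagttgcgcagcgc
Rpl22, chr5:168117921-168117980, plus strand: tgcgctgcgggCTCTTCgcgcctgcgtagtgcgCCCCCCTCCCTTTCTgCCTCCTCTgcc
Rplp0, chr12:46718371-46718430, minus strand: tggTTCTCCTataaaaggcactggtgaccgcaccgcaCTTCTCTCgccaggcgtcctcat
Rplp1, chr8:71290853-71290912, minus strand: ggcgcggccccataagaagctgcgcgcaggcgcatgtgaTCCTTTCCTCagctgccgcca
Rps18, chr20:4933705-4933764, plus strand: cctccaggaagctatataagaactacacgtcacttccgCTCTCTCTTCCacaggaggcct

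In these lines the run lies across the start of Rplp0, Rplp1, Rps18, Rpl22 and the second Rps27a start, and ends before the start of Rpl13a and Rpl22l1, while the printed Rps27l region holds none. Of the 74 genes, 60 had a start in the table. A run of at least 6 pyrimidines covered the start in 30 of these 60 genes (50.0%), against 9.35% of the 27457 genes in the table, and lay within 20 bases of the start in 81.7% against 38.9%. The first transcribed base was C in 51.7% of the members and 27.2% of all genes. In the windows from 250 bases before to 50 bases after the start, searched on both strands, the ETS motif CCGGAAG was found in 30.0% of members against 9.63% of all genes, the motif TCTCGCGA in 18.3% against 0.965%, the YY1 motif AAGATGGC in 8.33% against 3.62%, and the cAMP response element TGACGTCA in 3.33% against 2.0%. A match is a description of these letters and not a bound site.

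By the scan times in the file headers the 6 arrays lay on 2 slides. Arrays with the same scan time were taken to be on the same slide. Controls 1 to 3 and isoproterenol replicate 1 were on slide 1, and isoproterenol replicates 2 and 3 on slide 2, so a comparison with controls on the same slide exists for 1 treated sample only. The slide 2 arrays had median signals of 87 and 84 at the negative control probes against 27 to 30 on slide 1, 75th percentile signals of 198 and 240 against 514 to 562, and 61.3% and 70.9% of mRNA probes well above background against 97.7% to 99.8%. Results below are therefore also given within slide 1, and under quantile normalization, which gives all arrays the same distribution of signals, for many of the genes named. Unless another scale is named, a level is the log2 processed signal minus that of the array's 75th percentile, and a difference is the isoproterenol mean minus the control mean of these levels. Its standard error (SE) is the moderated one of limma. That SE combines the gene's own spread over 3 arrays per group with the spread typical of all genes. Levels of different probes are not comparable with each other.

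With isoproterenol, 8 ribosomal protein genes rose and none fell, and 66 did not pass the test (limma over all genes, Benjamini-Hochberg adjusted p under 0.05). Over all genes tested, 10.2% rose and 5.92% fell, so the 8 of 74 lie near the background. At an unadjusted p under 0.05 there were 41 members, all of them higher, against 35.9% of all genes in either direction. The 8 were Rpl39l1, Rpl22l1, Rps27a, Rpl13a, Rplp1, Rpl18, Rps27l and Rpl9, 6 of the large and 2 of the small subunit. Their fold changes lay between 1.75 and 2.24. With quantile normalization 4 of the 8, Rps27a, Rpl13a, Rps27l and Rpl22l1, still passed, against 7.59% of all genes, and the same 4 passed under all 6 scalings tried. All genes that rose made up 10.6% with normexp background correction, 7.85% with median scaling, 6.91% with the percentile taken over probes detected everywhere, and 8.08% in the authors' deposited table. Rps27a, Rpl13a and Rps27l were outside the 10% of tested genes with the highest mean signal, which held 58 of the 74 members. With quantile normalization 3 of the 16 members outside it passed, and 1 of the 58 inside it. Within slide 1, and with slide as a block, none of the 74 passed in limma, against 2.5% and 3.66% of all genes that rose there, and 11 and 9 members had an unadjusted p under 0.05, against 28.9% and 26.2% of all genes. Slide 2 holds treated arrays only, so for the members the slide block and slide 1 alone give the same differences and are not separate checks. Without isoproterenol replicate 1, which leaves slide 2 alone against the controls, 56 rose and 4 fell, against 29.4% and 22.7% of all genes.

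**Figure D1:**
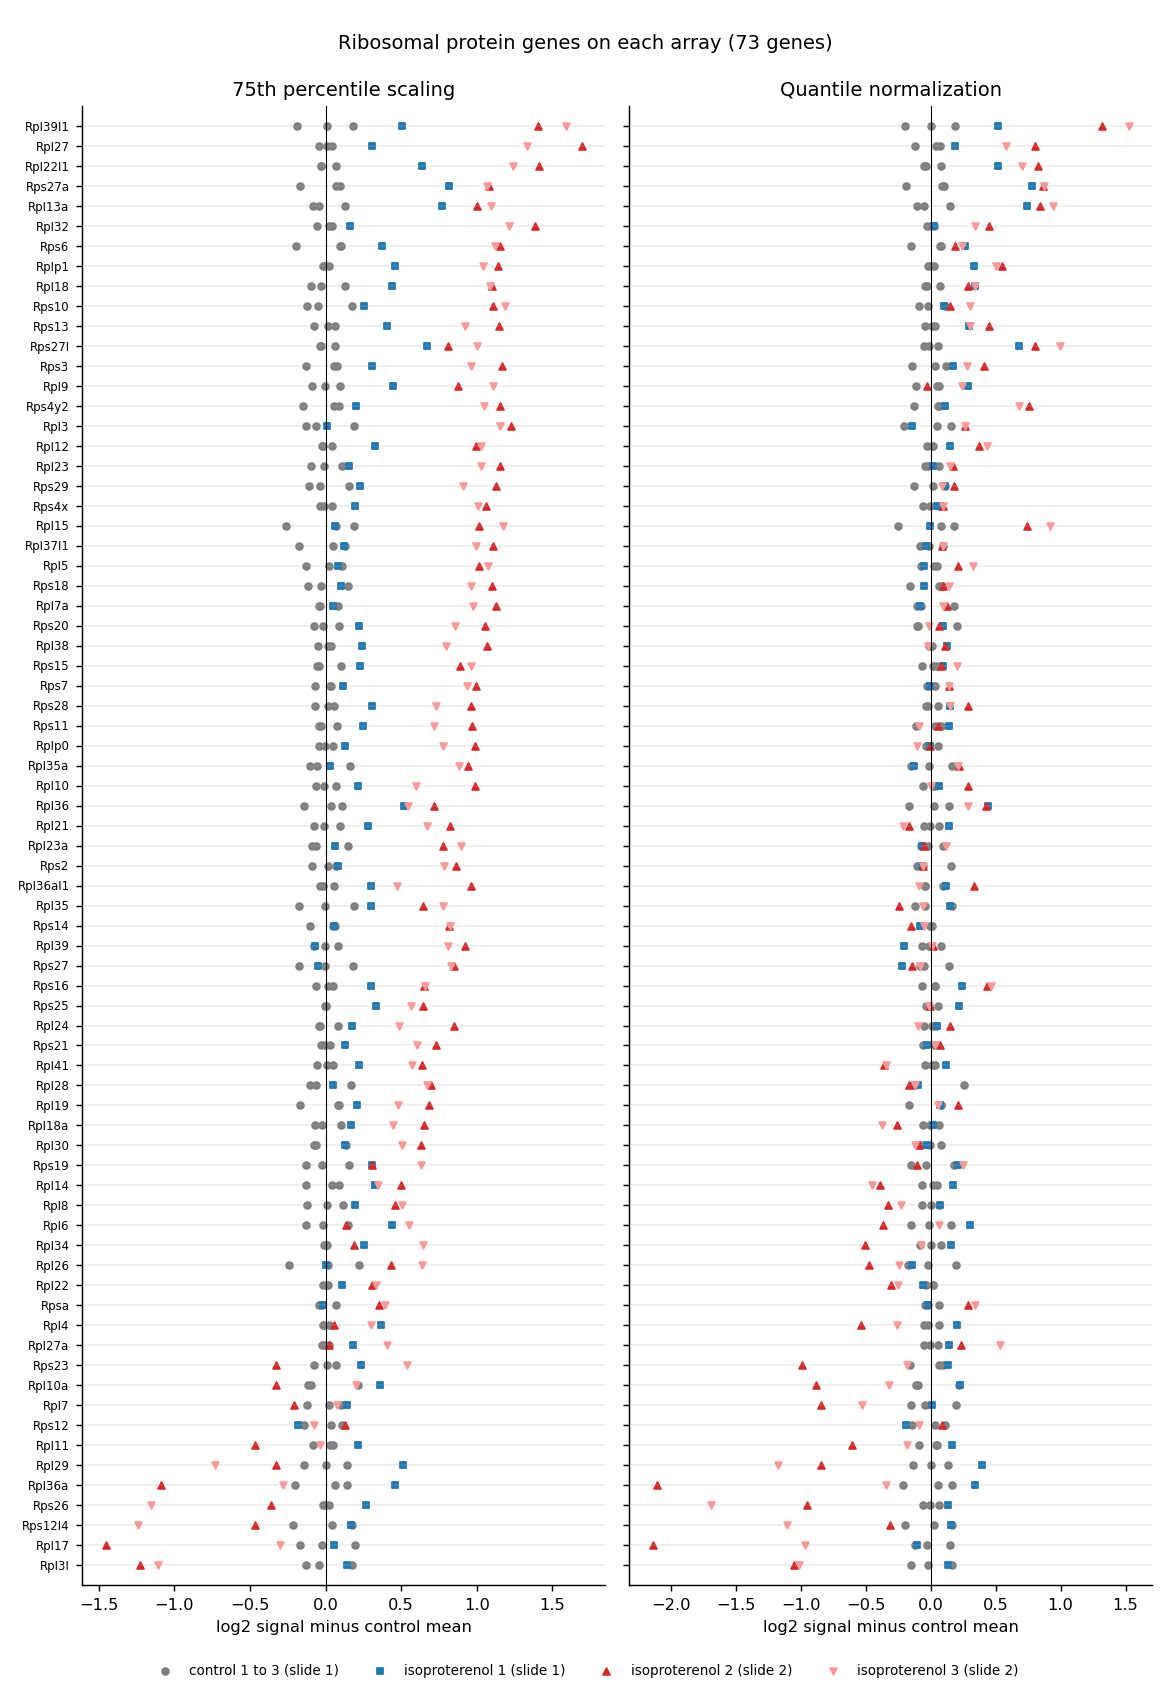
Level of 73 of the 74 ribosomal protein genes on each array minus its control mean (x axis, log2), ordered by the difference, with 75th percentile scaling on the left and quantile normalization on the right; grey circles are controls, the square is isoproterenol replicate 1 on slide 1, and triangles are isoproterenol replicates 2 and 3 on slide 2. On the left the triangles of most genes lie to the right of the square, and on the right the arrays lie closer together. Rps27a, Rpl13a, Rps27l and Rpl22l1 are among the genes that stand above the controls on every treated array of both panels.

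Rps27a encodes ubiquitin fused to a small subunit protein and so supplies both. Its level was 1.49, 1.25 and 1.52 in the controls and 2.24, 2.50 and 2.49 in the treated samples, a change of 0.99 ± 0.18 (SE, n = 3 per group; limma adjusted p = 0.015). The treated samples of both slides lay together, and the groups did not overlap. A second row of the table, for another Rps27a transcript, changed by 1.26 ± 0.19 (SE, n = 3 per group; limma adjusted p = 0.010 with every probe as an item), with levels of 0.95 to 1.09 in the controls and 1.98 to 2.52 in the treated samples. The change of the first row was 0.84 (adjusted p = 0.021) with quantile normalization and 0.81 (adjusted p = 0.071) within slide 1 by limma.

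Rpl13a encodes a large subunit protein that can also leave the ribosome to repress the translation of inflammatory transcripts, and it is widely used as a reference transcript. Its level was 1.06, 0.89 and 0.85 in the controls and 1.70, 1.94 and 2.02 with isoproterenol. All 3 treated samples stood above the controls, and the change of 0.95 ± 0.17 (SE, n = 3 per group) had a limma adjusted p of 0.016. It was 0.84 (adjusted p = 0.021) with quantile normalization and 0.77 (adjusted p = 0.068) within slide 1 by limma.

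Rps27l encodes a close copy of the small subunit protein Rps27 and is a target of p53. Its level was -0.75, -0.74 and -0.65 in the controls and -0.045, 0.092 and 0.28 in the treated samples. The treated samples of both slides lay above all controls, which were on slide 1 only. The change was 0.82 ± 0.17 (SE, n = 3 per group, limma adjusted p = 0.022). Quantile normalization gave 0.83 (limma adjusted p = 0.022), and slide 1 alone gave 0.67 (limma adjusted p = 0.069).

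Rpl22l1 encodes a close copy of Rpl22 that can take its place in the large subunit. Its level was 5.20, 5.30 and 5.20 in the controls and 5.87, 6.65 and 6.47 with isoproterenol, so that replicate 1 lay between the controls and the slide 2 arrays. The change was 1.10 ± 0.23 (SE, n = 3 per group; limma adjusted p = 0.026). It was 0.68 (limma adjusted p = 0.035) with quantile normalization and 0.63 (limma adjusted p = 0.076) within slide 1.

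The other 4 genes passed the test with 75th percentile scaling and not with quantile normalization. Rpl39l1 encodes a close copy of Rpl39, a small protein in the wall of the exit tunnel, and is best known from the testis. Its level was -0.39, -0.22 and -0.59 in the controls and 0.10, 1.00 and 1.19 in the treated samples, a change of 1.17 ± 0.31 (SE, n = 3 per group; limma adjusted p = 0.046). The groups did not overlap. Its change with quantile normalization was 1.12 (limma adjusted p = 0.058), nearly the same size. Rplp1, an acidic protein of the stalk that recruits elongation factors, was at 5.53, 5.49 and 5.50 in the controls and 5.97, 6.64 and 6.55 with isoproterenol. Its change was 0.88 ± 0.22 (SE, n = 3 per group; limma adjusted p = 0.040) and 0.46 (limma adjusted p = 0.075) with quantile normalization. Rpl18 and Rpl9 are core proteins of the large subunit. Rpl18 changed by 0.88 ± 0.23 (limma adjusted p = 0.045), and by 0.32 (limma adjusted p = 0.139) with quantile normalization. Rpl9 changed by 0.81 ± 0.21 (limma adjusted p = 0.047), and by 0.17 (limma adjusted p = 0.449) with quantile normalization. Within slide 1 the differences of Rpl39l1, Rplp1, Rpl18 and Rpl9 were 0.50, 0.46, 0.44 and 0.44, and none passed (limma adjusted p from 0.120 to 0.183). In these genes too all 3 treated samples lay above the controls with 75th percentile scaling. Leaving out single samples ended calls. Of the 8 genes, Rpl13a and Rps27a alone passed without control replicate 1, against 4.27% of all genes that rose there. None of the 74 passed without control replicate 2 or 3, or without isoproterenol replicate 2 or 3, against 1.38%, 1.03%, 3.51% and 2.27% of all genes that rose. In these 4 fits 16, 17, 18 and 16 members had an unadjusted p under 0.05, against 24.8%, 24.1%, 26.9% and 25.3% of all genes.

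**Figure D2:**
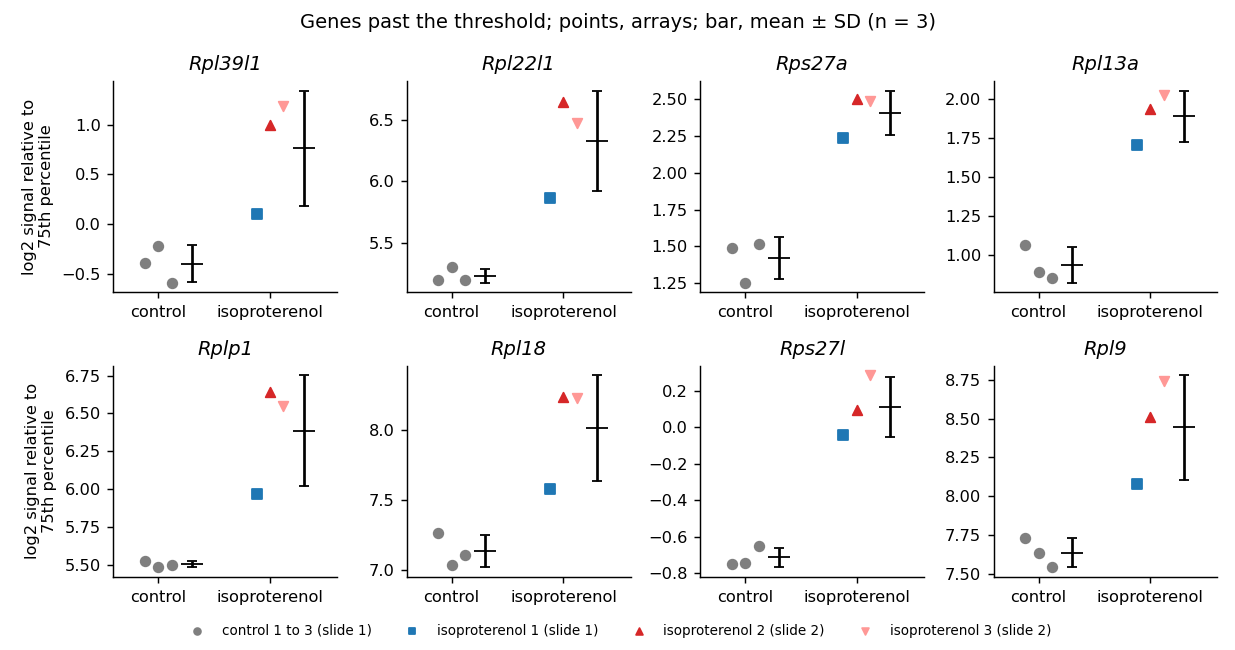
Level of the 8 ribosomal protein genes that passed the test (y axis, log2 processed signal relative to the array's 75th percentile) on each control and isoproterenol array; the bar to the right of the points is the mean ± SD (n = 3). All treated points lie above all control points in each panel, and the square, isoproterenol replicate 1 on slide 1, is the lowest treated point in each; for Rps27a it is at 2.24 against 2.50 and 2.49.

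Over the family as a whole most differences were positive with 75th percentile scaling, and so were those of other genes of high signal. The median difference was 0.59 over the 74 members and 0.066 over all genes tested, with 66 members positive and 8 negative. The large subunit had a median of 0.57 and the small subunit one of 0.66. Of the 74 members, 58 were among the 10% of tested genes with the highest mean signal, and the other genes of this brightest group had a median difference of 0.50. The groups did not overlap in 46 members, all higher, against 25.6% of all genes higher and 15.8% lower.

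With quantile normalization the median over the members was 0.062, that over all genes -0.080, and that over the other genes of the brightest 10% 0.061. The median over all genes was 0.37 with normexp background correction and -0.17 with the percentile taken over probes detected on every array, beside 0.45 and 0.35 over the members. With quantile normalization the large subunit was at 0.017 and the small subunit at 0.10, with 44 members positive and 30 negative. In 20 members the treated samples lay above all controls and in 2 below, against 21.4% and 19.9% of all genes. Of the 74 genes, 61 had a difference under 0.5 in either direction. Within slide 1, isoproterenol replicate 1 lay above all 3 controls in 55 members and below in 1, Rps12, against 45.6% and 29.7% of all genes. The median difference there was 0.22 over the members, 0.11 over all genes and 0.18 over the other genes of the brightest 10%. Within slide 1 the spread rests on the controls alone, and the lone treated sample is assumed to vary like them.

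**Figure D3:**
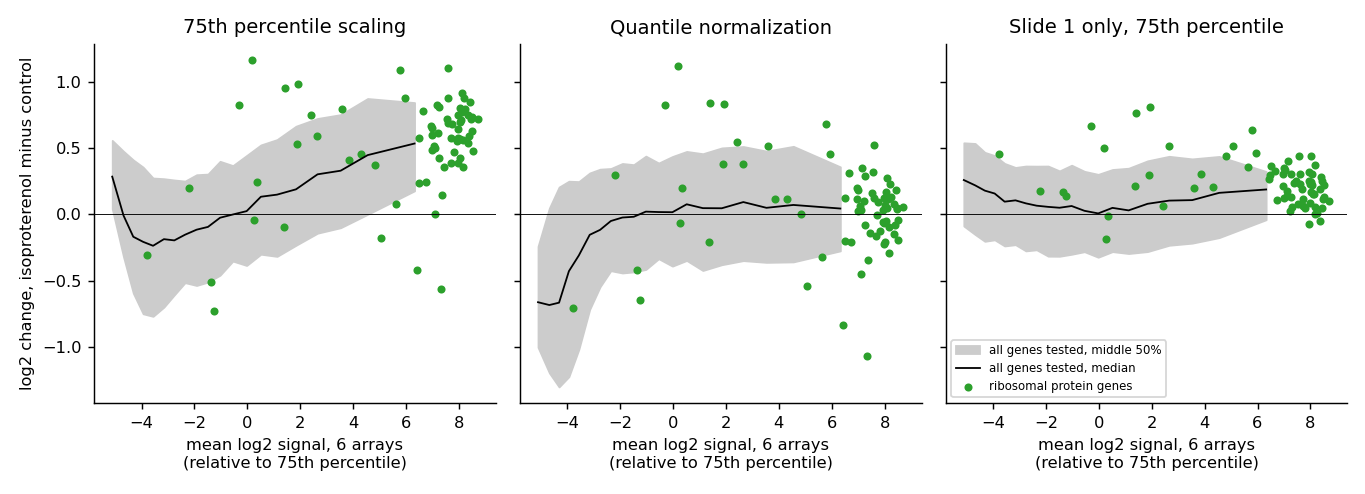
Isoproterenol minus control (y axis, log2) against mean signal over the 6 arrays (x axis, log2 relative to the 75th percentile) for 75th percentile scaling, quantile normalization and slide 1 alone; points are the 74 ribosomal protein genes, the line is the median and the band the middle 50% of all genes tested in 20 bins of signal. With 75th percentile scaling the line climbs at high signal, where 55 of the 74 members lie in the top bin; with quantile normalization it stays near 0 there.

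The positive differences were larger on slide 2. In 60 of the 74 members both slide 2 arrays lay above isoproterenol replicate 1, and in 10 both lay below, against 47.9% and 37.6% of all genes. In the other genes of the brightest 10%, both lay above in 1559 of 1936. The median difference between the slide 2 and the slide 1 treated samples was 0.54 over the members, 0.62 over the other genes of the brightest 10% and 0.10 over all genes. With quantile normalization the members were at 0.0066, with 32 above and 32 below, against 45.6% and 39.8% of all genes. The SD over the 3 treated samples had a median of 0.385 over the members, against 0.093 over the 3 controls, and with quantile normalization the medians were 0.144 and 0.086. Slide, background signal and treatment cannot be told apart in replicates 2 and 3, and the part of the slide in these differences was not tested beyond these values.

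**Figure D4:**
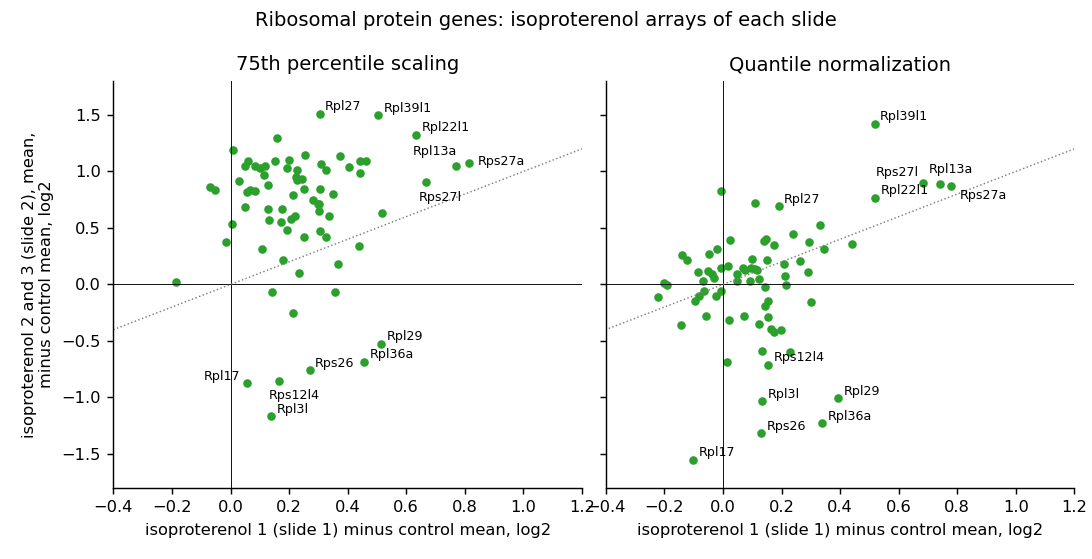
Difference from the control mean of the slide 2 treated arrays, averaged (y axis, log2), against that of isoproterenol replicate 1 on slide 1 (x axis, log2), for the 74 ribosomal protein genes with 75th percentile scaling and with quantile normalization; the dotted line marks equality. Most points lie above the line on the left. Rps27a, Rpl13a, Rps27l, Rpl22l1 and Rpl39l1 are far from 0 on both axes in both panels. Rpl3l, Rpl17, Rps26, Rps12l4, Rpl29 and Rpl36a are low on slide 2 alone.

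Of the other stalk and surface proteins, Rplp0, the base of the stalk and a common reference transcript, had a difference of 0.63 ± 0.25 (limma adjusted p = 0.120), of -0.042 with quantile normalization and of 0.13 within slide 1. Its level was 8.18, 8.14 and 8.23 in the controls and 8.31, 9.17 and 8.96 in the treated samples, with replicate 1 close to the controls. Rpsa, the small subunit protein also known as the laminin receptor, had a difference of 0.24 ± 0.18 (limma adjusted p = 0.357), and of -0.015 within slide 1, where isoproterenol replicate 1 at 0.21 lay inside the control range of 0.18 to 0.29.

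Rps6, the substrate of the S6 kinases, was at 7.85, 7.55 and 7.84 in the controls and 8.12, 8.90 and 8.87 with isoproterenol. The groups did not overlap, but the difference of 0.88 ± 0.26 did not pass the test (limma adjusted p = 0.058), and with quantile normalization it was 0.23 (limma adjusted p = 0.275). Rpl5 and Rpl11, which together with an RNA of the large subunit bind the p53 inhibitor Mdm2, had unlike values. Rpl5 had a difference of 0.72 ± 0.29 (limma adjusted p = 0.126), with replicate 1 at 7.26 inside the control range of 7.05 to 7.28. Rpl11 had one of -0.099 ± 0.22 (limma adjusted p = 0.762), and of 0.21 within slide 1, and its treated levels of 1.64, 0.95 and 1.39 lay on both sides of the controls at 1.34 to 1.48. Rps19, the small subunit protein most often mutated in Diamond-Blackfan anaemia, had a difference of 0.41 ± 0.18 (limma adjusted p = 0.151), and its groups did not overlap.

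Rpl32 and Rps18 are, like Rpl13a, often used as reference transcripts. Rpl32 had a difference of 0.92 ± 0.33 (limma adjusted p = 0.096) with 75th percentile scaling, of 0.27 with quantile normalization and of 0.16 within slide 1. The values for Rps18 were 0.72 ± 0.29 (limma adjusted p = 0.124), 0.059 and 0.099. Neither passed the test. Rpl27, a large subunit protein, had a high difference that did not pass either. Its level was 6.99, 7.04 and 7.08 in the controls and 7.34, 8.73 and 8.37 in the treated samples, a difference of 1.11 ± 0.35 (limma adjusted p = 0.072), with 0.52 under quantile normalization and 0.30 within slide 1. Its treated samples differed between slides by more than replicate 1 differed from the controls.

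At the low end, Rpl3l, the copy of Rpl3 found mainly in heart and skeletal muscle, was at -0.71, -0.92 and -1.01 in the controls and -0.74, -2.10 and -1.99 with isoproterenol. Its slide 2 arrays were low, its replicate 1 lay within the controls, and the difference of -0.73 ± 0.37 did not pass (limma adjusted p = 0.199). Rpl17, a large subunit protein at the tunnel exit, was at 7.79, 7.43 and 7.57 in the controls and 7.65, 6.14 and 7.30 in the treated samples, a difference of -0.57 ± 0.39 (limma adjusted p = 0.319). Here 1 treated array, replicate 2, was far below the rest. Rps26, a small subunit protein at the mRNA exit, was at 6.61 to 6.66 in the controls and 6.90, 6.27 and 5.48 in the treated samples, a difference of -0.42 ± 0.35 (limma adjusted p = 0.409). Rps12l4, a copy of Rps12, had a difference of -0.51 ± 0.35 (limma adjusted p = 0.325). Rpl36a had one of -0.30 ± 0.38 (limma adjusted p = 0.586), and it was well above background on 1 of the 3 treated arrays. All 5 had replicate 1 above the control mean, by 0.057 to 0.46. Without replicate 1, which leaves slide 2 alone against controls on slide 1, 22.7% of all genes passed as lower. Rpl3l, Rps26 and Rps12l4 were among them, as was Rpl29, at -1.17, -0.76, -0.85 and -0.53 (limma adjusted p = 0.0022, 0.046, 0.041 and 0.0496). With all 6 arrays Rpl29 had a difference of -0.18 ± 0.32 (limma adjusted p = 0.709). Its replicate 1, at 5.67, lay above the controls at 5.01 to 5.29.

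The close copies were set against their usual partners on the same array, which takes out any scaling that moves both probes alike. There were 6 pairs, and with 3 samples against 3 the exact two-sided permutation test cannot go below 0.1. Rpl22l1 exceeded Rpl22 by 0.85 in its difference between groups (exact permutation p = 0.1, adjusted over the 6 pairs 0.3). Rpl22 itself had a difference of 0.25 ± 0.16 (limma adjusted p = 0.291), and of -0.21 with quantile normalization. The log2 ratio of Rpl22l1 to Rpl22 was -1.43, -1.30 and -1.42 in the controls and -0.86, -0.28 and -0.48 in the treated samples, which did not overlap under 75th percentile scaling, quantile normalization or normexp background correction. Rpl39l1 exceeded Rpl39 by 0.61 (exact permutation p = 0.1, adjusted 0.3), again with no overlap under these 3 settings. With quantile normalization the values for these pairs were 0.89 and 1.18, and within slide 1 they were 0.53 and 0.57. Rpl39 had a difference of 0.55 ± 0.28 (limma adjusted p = 0.202), of -0.060 with quantile normalization and of -0.069 within slide 1.

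Rps27l exceeded Rps27 by 0.28 with 75th percentile scaling (exact permutation p = 0.4), and the groups overlapped. The value was 0.98 with quantile normalization (exact permutation p = 0.1) with no overlap, and 0.72 within slide 1. Rps27 had a difference of 0.54 ± 0.28 (limma adjusted p = 0.209), of -0.15 with quantile normalization and of -0.053 within slide 1. Rpl3l against Rpl3 gave -1.53 (exact permutation p = 0.3), with overlap, -0.77 with quantile normalization and 0.13 within slide 1. Rpl3 had a difference of 0.80 ± 0.34 (limma adjusted p = 0.146), and of 0.0085 within slide 1. Rpl36al1 against Rpl36a gave 0.88 (exact permutation p = 0.4), but -0.16 within slide 1 and -0.12 with normexp background correction, and rests on a partner that was near background. Rps4y2 and Rps4x had differences of 0.80 ± 0.28 and 0.75 ± 0.26 (limma adjusted p = 0.092 and 0.089), and the copy exceeded its partner by 0.046 (exact permutation p = 0.8). For this pair quantile normalization gave 0.44 (exact permutation p = 0.2).

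**Figure D5:**
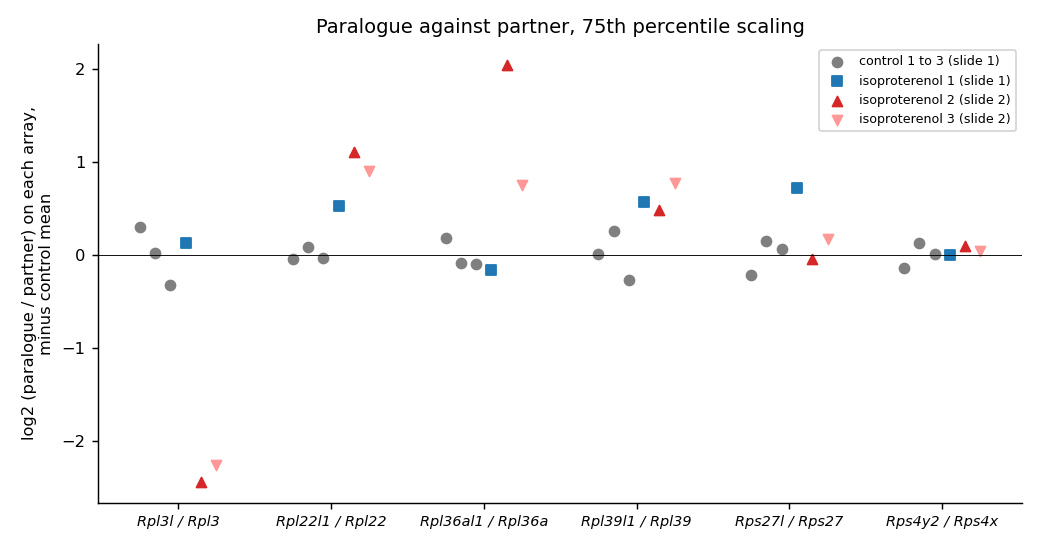
Log2 ratio of each close copy to its partner on each array minus the control mean of that ratio (y axis), for the 6 pairs, with 75th percentile scaling; grey circles are controls, the square is isoproterenol replicate 1, and triangles are replicates 2 and 3 on slide 2. Rpl22l1 to Rpl22 and Rpl39l1 to Rpl39 have all 3 treated points above the controls, and the low Rpl3l to Rpl3 points are both from slide 2.

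The other named members gave values in the same range. Rpl10, which joins the large subunit late in its maturation, had a difference of 0.60 ± 0.23 (limma adjusted p = 0.111), Rpl26, which binds p53 mRNA, one of 0.36 ± 0.23 (limma adjusted p = 0.292; -0.29 with quantile normalization), and Rpl37l1 one of 0.74 ± 0.29 (limma adjusted p = 0.119). Rpl7 was at 0.0021 ± 0.18 (limma adjusted p = 0.995), though quantile normalization placed it at -0.45 ± 0.25. Rpl36al1 was at 0.58 ± 0.21 (limma adjusted p = 0.104). None of the 66 members that did not pass lay above Rpl27 or below Rpl3l. Among the 60 genes with an annotated start, 3 of the 30 with a pyrimidine run over the start rose. Of the 30 without it 5 rose, and of all genes tested 10.2%. The median differences were 0.56 with the run and 0.63 without it. With quantile normalization these medians were -0.045 and 0.12. These sets of genes, with Rps27a counted by its second start, were not tested against each other.

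Genes of the same pathway were counted from lists, in the same fit, where 10.2% of all genes rose and 5.92% fell. Of the ribosomal proteins with other names, Fau and Rack1 had differences of 0.39 and 0.73, and neither passed. Other transcripts known to carry the tract, elongation factors and Npm1, Pabpc1 and Nap1l1 among them, gave 0 higher and 1 lower of 12 tested out of 14. The median was 0.17 with 75th percentile scaling, -0.15 with quantile normalization and -0.081 within slide 1. The lower one was Eif4b, a helper of the initiation helicase and a target of S6 kinases, at -1.28 ± 0.28 (limma adjusted p = 0.028), with levels of 3.73 to 3.88 in the controls and 3.14, 2.12 and 2.35 in the treated samples. It was at -1.52 (limma adjusted p = 0.034) with quantile normalization and -0.67 (limma adjusted p = 0.073) within slide 1. Eef2, the elongation factor that moves the ribosome along, was at -0.075 ± 0.18 (limma adjusted p = 0.790), and at -0.60 (limma adjusted p = 0.139) with quantile normalization. The elongation factors Eef1b2 and Eef1g were at 1.08 and 0.94 (limma adjusted p = 0.054 and 0.053). With quantile normalization they were at 0.56 and 0.49. Of the 12, 7 had positive and 5 negative differences with 75th percentile scaling.

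Initiation factors gave 8 higher and none lower of 19 tested out of 23, against 10.2% and 5.92% of all genes. Their median was 0.84, with 0.42 under quantile normalization and 0.53 within slide 1. With quantile normalization Eif6, Eif2b3, Eif3b and Eif3d, 4 in all, still passed, against 7.59% of all genes that rose. Eif6, which keeps the subunits apart until the large one is mature, was at 3.64, 3.28 and 3.30 in the controls and 4.39, 5.12 and 4.91 with isoproterenol, a change of 1.40 ± 0.24 (limma adjusted p = 0.014). It also passed with quantile normalization, at 1.08 (limma adjusted p = 0.021). The other 7 were Eif2s2 at 1.49, Eif4e, the cap-binding protein, at 1.25, Eif3c at 1.22, Eif2b3 at 1.06, Eif3d at 1.01, Eif3b at 0.98 and Eif2b2 at 0.86. Of the mTORC1 axis, 2 of 14 tested rose and 3 fell, against 10.2% and 5.92% of all genes. Eif4ebp1, the inhibitor of Eif4e that mTORC1 switches off, rose by 1.38 ± 0.32 (limma adjusted p = 0.034) and the S6 kinase gene Rps6kb2 by 0.86 ± 0.23 (limma adjusted p = 0.048). Neither passed with quantile normalization (limma adjusted p = 0.090 and 0.073). Eef2k, the kinase that inhibits Eef2, fell by 1.25 on the log2 scale (limma adjusted p = 0.017), Pdcd4, an inhibitor of the initiation helicase, by 1.33 (limma adjusted p = 0.028), and Tbc1d7, a subunit of the Tsc complex that restrains mTORC1, by 0.86 (limma adjusted p = 0.017).

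Mitochondrial ribosomal proteins, which serve the separate ribosome of that organelle, gave 5 higher and none lower of 66 tested. Over all genes 10.2% rose and 5.92% fell. The median difference of the list was 0.31, with 0.20 under quantile normalization and 0.17 within slide 1. The 5 were Mrps22, Mrpl49, Mrps18a, Mrps2 and Mrps12, at 1.37, 1.10, 0.93, 0.87 and 0.81. With quantile normalization 1 of the 66 passed, Mrpl49, at 1.01 (limma adjusted p = 0.020), against 7.59% of all genes that rose. Within slide 1 no gene of these 5 lists passed.

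Markers of the cell types that the cultures could hold were read in the same fit. The heart muscle markers Tnnt2, Tnni3, Myh6, Myh7, Actn2, Actc1, Myl2, Ryr2, Pln and Mybpc3 were well above background on all 6 arrays, with 1 higher (Myh6, at 1.23 ± 0.23, limma adjusted p = 0.018) and none lower of 10. That call was lost with quantile normalization, at 0.63 (limma adjusted p = 0.063), where Pln was lower, at -1.25 (limma adjusted p = 0.010). Within slide 1 Pln and Mybpc3 were lower, at -1.24 and -1.15 (limma adjusted p = 0.040 and 0.045), and none was higher. The summed linear level of the list was 1862 to 2268 in the controls and 2310 to 3749 in the treated samples. Fibroblast markers gave 2 higher and 4 lower of 10 (summed level 156 to 165 and 133 to 178), endothelial markers 0 and 2 of 8 (15.4 to 17.3 and 14.3 to 15.9), smooth muscle markers 2 and 1 of 4 (82.8 to 148 and 215 to 496), macrophage and leukocyte markers 1 and 0 of 6 (25.6 to 37.6 and 34.9 to 53.7), and erythroid markers 0 and 1 of 3 (27.1 to 32.2 and 21.3 to 38.8). With quantile normalization the counts of these 5 lists were the same but for smooth muscle, with 1 higher and 1 lower. Within slide 1, 2 fibroblast and 2 endothelial markers were lower and no other marker of the 5 lists passed. The summed level of the 74 ribosomal protein genes was 9306 to 10037 in the controls and 11038 to 17590 in the treated samples. That of the other genes of the brightest 10% was 104350 to 109970 and 117350 to 181620. Over all genes tested it was 142320 to 147610 and 157820 to 235130, so the sums were higher in the treated samples there too. The part of these cell types in the ribosomal protein values was not tested. Fewer cells of a type and less RNA per cell cannot be told apart in bulk samples, and the scaling removes any change in total RNA.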

How the data were processed

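RNA of 6 cultures was read on 6 Agilent arrays. The scanner files hold linear Cy3 intensity values, background-subtracted by Agilent Feature Extraction 11.0.1.1 per the file headers, which name the design build rn4. The authors also deposited a table of log2 values for 20734 mRNA transcripts; no source used here names its tool, and its values lie close to quantile-normalized log2 processed signals. The table names transcripts and the scanner files do not, so rows were matched to probes by value on the 4 slide 1 arrays (distance under 0.05, and under 0.25 of that to the next probe). Of the rows, 20639 matched; 18207 were also nearest within 0.01 over all 6 arrays, each to the same probe, and all 76 ribosomal protein rows lay within 0.00624 on every array. Away from them the table differed on slide 2 (95th percentile of the difference 0.471 and 0.243, against at most 0.00031 on slide 1), and the cause was not tested. RefSeq gene names for GRCr8 fitted 13956 of 14757 RefSeq rows and 0 of 5977 Ensembl rows.

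Control spots and 883 outlier-flagged spot values were left out; no spot was saturated. Spots of a probe were averaged, each array was scaled to its 75th percentile, probes had to be well above background on 3 arrays, and the brightest probe stood for a gene. limma 3.58.1 (R 4.3.3) tested all 19942 genes, two-sided, with Benjamini-Hochberg adjustment; the scripts were tested on simulated data. Gene pairs were tested by exact permutation (scipy 1.17.1). The number of arrays limits the precision. Alternatives were other scalings, filters and probe rules, slide and replicate blocks, slide 1 alone, the deposited table, and leaving out each sample. Normexp correction (offset 50) used the median foreground signal, where the mean had been planned. Named were the members past the threshold, the 5 highest and 5 lowest, and the stalk proteins, close copies and their partners, Rps6, Rpl5, Rpl11, Rps19 and reference transcripts; Rpl29 and Rps12 were named after their values were seen. The members and lists were chosen with earlier results of these data known. Some items are not reported here.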

Additional observations from a re-analysis of the deposited data

How the results depend on the processing

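With 75th percentile scaling 3207 genes passed, 2027 of them higher, 8 ribosomal protein genes rose, none fell and their median change was 0.59; normexp, no filter on dim probes, the mean of a gene's probes and every probe as an item kept these within 1.5 times (the median within the spread between replicates). Risen members numbered 4 with quantile normalization, median scaling, the authors' deposited table and the percentile taken over detected probes, and 28 among the 12307 genes well above background on all 6 arrays, of which 3081 rose. The median was 0.062 with quantile normalization, 0.061 with the deposited table and 0.35 with the percentile over detected probes. Higher calls were 1378 of 3361 with that percentile and 2112 of 2861 with normexp. With slide as a block 1454 genes passed, 0 members and a median of 0.22; within slide 1, 1043, 0 and 0.22; with slide as a random block, 2124, 3 and 0.30. Combined with quantile normalization, chosen after seeing the data, the slide block gave 1039, 0 and 0.12, and slide 1 alone 1370, 0 and 0.12. Leaving out 1 sample gave 369 to 10396 genes, 0 to 56 members higher, 0 to 4 lower and medians of 0.48 to 0.82; the highest values came without isoproterenol replicate 1 and the lowest gene count without control replicate 3. The causes were not tested. No pairing by replicate number was seen (correlations of same-numbered deviations 0.0056, 0.052 and -0.023). The treated deviations also hold the split between slides, which the controls lack, so these values cannot decide whether samples were paired. With the replicate block 1452 genes and 0 members passed by limma (34 members and 34.3% of all genes at an unadjusted p under 0.05).

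Over all alternatives, values of the named members kept their direction and side of the threshold in 500 instances, kept their direction but lost the call in 99, gained it in 22 and changed sign in 71. The slide block and slide 1 alone give the same differences but are counted separately here, also under quantile normalization. With quantile normalization and with the deposited table Rpl22 was at -0.21, Rpl26 at -0.29, Rpl39 at -0.060, Rpl7 at -0.45 (-0.46 in the table), Rplp0 at -0.042 and Rps27 at -0.15. With slide as a block, and within slide 1, Rpl11 was at 0.21, Rpl17 at 0.057, Rpl36a at 0.46, Rpl39 at -0.069, Rpl3l at 0.14, Rps12l4 at 0.17, Rps26 at 0.27, Rps27 at -0.053 and Rpsa at -0.015. With slide as a random block Rpl11 was at 0.13, Rpl36a at 0.26 and Rps26 at 0.093. With quantile normalization and the slide block, or slide 1 alone, Rpl11 was at 0.17, Rpl22 at -0.057, Rpl26 at -0.14, Rpl3 at -0.14, Rpl36a at 0.34, Rpl37l1 at -0.039, Rpl39 at -0.20, Rpl3l at 0.13, Rpl5 at -0.050, Rplp0 at -0.0081, Rps12l4 at 0.16, Rps18 at -0.053, Rps26 at 0.13, Rps27 at -0.22 and Rpsa at -0.022. With normexp Rpl36a was at 0.55 and Rpl7 at -0.22, and Rpl7 was at -0.24 with the percentile over detected probes. Leaving out 1 sample, Rpl7 ranged from -0.067 to 0.11, Rpl11 from -0.25 to 0.087 and Rpl36a from -0.68 to 0.089. Rpl36a alone among the members was not well above background on all 6 arrays. Rpl3l and Rps12l4 also had low signal on slide 2. With normexp their differences were -0.28 and -0.11, beside -0.73 and -0.51 without it.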
